A study of Arabidopsis thaliana with 12 samples.

Results

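Salicylic acid is a plant defence hormone, and 10 genes for its synthesis and signalling were followed across 3 Arabidopsis thaliana genotypes. They were taken by name as the non-control probes annotated to ICS1 (AT1G74710), ICS2 (AT1G18870), SARD1 (AT1G73805), CBP60G (AT5G26920), EDS1 (AT3G48090), PAD4 (AT3G52430), SAG101 (AT5G14930), EDS5 (AT4G39030), PBS3 (AT5G13320) and NPR1 (AT1G64280). All 10 were found among 25665 loci on the array, read by 12 of 37478 probes, and all 10 were among the 20640 genes tested. The genotypes were the glk1 glk2 double mutant, which lacks the greening transcription factors GLK1 and GLK2, the line 35S:GLK1-SRDX, and wild type, all in the Columbia-0 ecotype. GLK1-SRDX is GLK1 joined to a repression domain and driven by the 35S promoter, which is active in most tissues. Each group had 4 one-colour Agilent arrays of RNA from whole seedlings, 2 weeks old, grown without treatment on sucrose-containing agar in long days. The labels say that many seedlings went into a harvest. They give neither the mutant alleles nor the number of transgenic lines, and do not state that replicates came from separate cultures, so p-values measure the spread between these arrays, which may be technical.

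Most pathogen-induced salicylic acid comes from the plastid. There ICS1, and to a lesser extent ICS2, convert chorismate to isochorismate, EDS5 exports isochorismate to the cytosol, and PBS3 joins it to glutamate, giving a product that breaks down to salicylic acid. SARD1 and CBP60g are related transcription factors that bind the ICS1 promoter, and EDS1 with its partners PAD4 and SAG101 relays immune receptor signals that raise ICS1 expression. NPR1 is a salicylate receptor that coactivates response genes. In the plastid, isochorismate also feeds the synthesis of phylloquinone, an electron carrier of photosystem I.

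Levels are log2 spot intensity set against the 75th percentile of each array, so a level of 0 equals that percentile (1562 to 2542 intensity units) and a difference of 1 is a doubling of intensity. Levels of different genes are not compared, since each probe has its own brightness. All 12 probes of the 10 genes were well above background and unmarked on all 12 arrays. In glk1 glk2 the GLK2 signal was lower than in wild type by a log2 fold change of -7.51 ± 0.19 (SE) and that of GLK1 by -2.23 ± 0.28, and in GLK1-SRDX they stood at 0.62 ± 0.19 and 0.85 ± 0.28 against wild type (limma adjusted p = 4.7e-09, 0.00296, 0.0513 and 0.0649; n = 4 per group). Signal of both shoot and root was present, with 5 of 5 green-tissue and 20 of 20 root markers tested. Slides 1 and 2 each held 2 glk1 glk2 and 2 wild-type arrays, while every GLK1-SRDX array was on slide 3, where slide and genotype cannot be told apart. The sum of the root markers' relative intensities ran from 33.1 to 106 in glk1 glk2, from 41.6 to 79.8 in GLK1-SRDX and from 57.2 to 86.0 in wild type. The brightest root marker, PYK10 (log2 level 4.69 to 6.19), weighs most in that sum. In whole seedlings, less tissue of a kind and less RNA per cell cannot be told apart.

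ICS1 was lower in glk1 glk2 than in both other genotypes. Its brighter probe stood at -2.97, -2.77, -2.13 and -3.10 on the glk1 glk2 arrays, at -0.98, -1.12, -1.32 and -1.27 on the GLK1-SRDX arrays and at -1.41, -1.56, -1.73 and -1.23 on the wild-type arrays. Every glk1 glk2 array lay below every array of the other genotypes, whereas GLK1-SRDX and wild type overlapped. ICS1 fell in glk1 glk2 (2.40-fold, log2 fold change -1.26 ± 0.19 SE, limma adjusted p = 0.00852), stood at 0.31 ± 0.19 in GLK1-SRDX against wild type (95% interval -0.12 to 0.74, adjusted p = 0.307) and was 2.97-fold higher in GLK1-SRDX than in glk1 glk2 (1.57 ± 0.19, adjusted p = 0.00111). Among the mutant arrays replicate 3 was the least lowered, and it also held the highest root-marker level. The fall against wild type was -1.38 within slide 1 and -1.14 within slide 2, where fits called 20 and 0 of 20640 genes. Same-numbered glk1 glk2 and wild-type arrays deviated together, and with replicate number as a block the fall from wild type missed the threshold (adjusted p = 0.0586). It also missed it without the arrays numbered 4 of both groups (-1.06, adjusted p = 0.0515). Over its 26 alternatives it passed in 21, with adjusted p from 0.000621 to 1.00. With root-marker level as a covariate it stood at -1.05 (adjusted p = 0.0267).

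A second, dimmer probe reads another annotated transcript model of ICS1 and gave the same order. It stood at -4.09, -3.61, -3.22 and -4.08 in glk1 glk2, at -1.86, -1.89, -1.86 and -1.71 in GLK1-SRDX and at -2.19, -2.50, -2.71 and -1.94 in wild type. On this probe the GLK1-SRDX arrays all lay above the wild-type arrays. Tested by itself among 21138 probes it fell in glk1 glk2 (-1.41 ± 0.21 SE, limma adjusted p = 0.00733) and was higher in GLK1-SRDX than in glk1 glk2 (1.92 ± 0.21, adjusted p = 0.000655), and GLK1-SRDX against wild type stood at 0.50 ± 0.21 (adjusted p = 0.133).

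**Figure D1:**
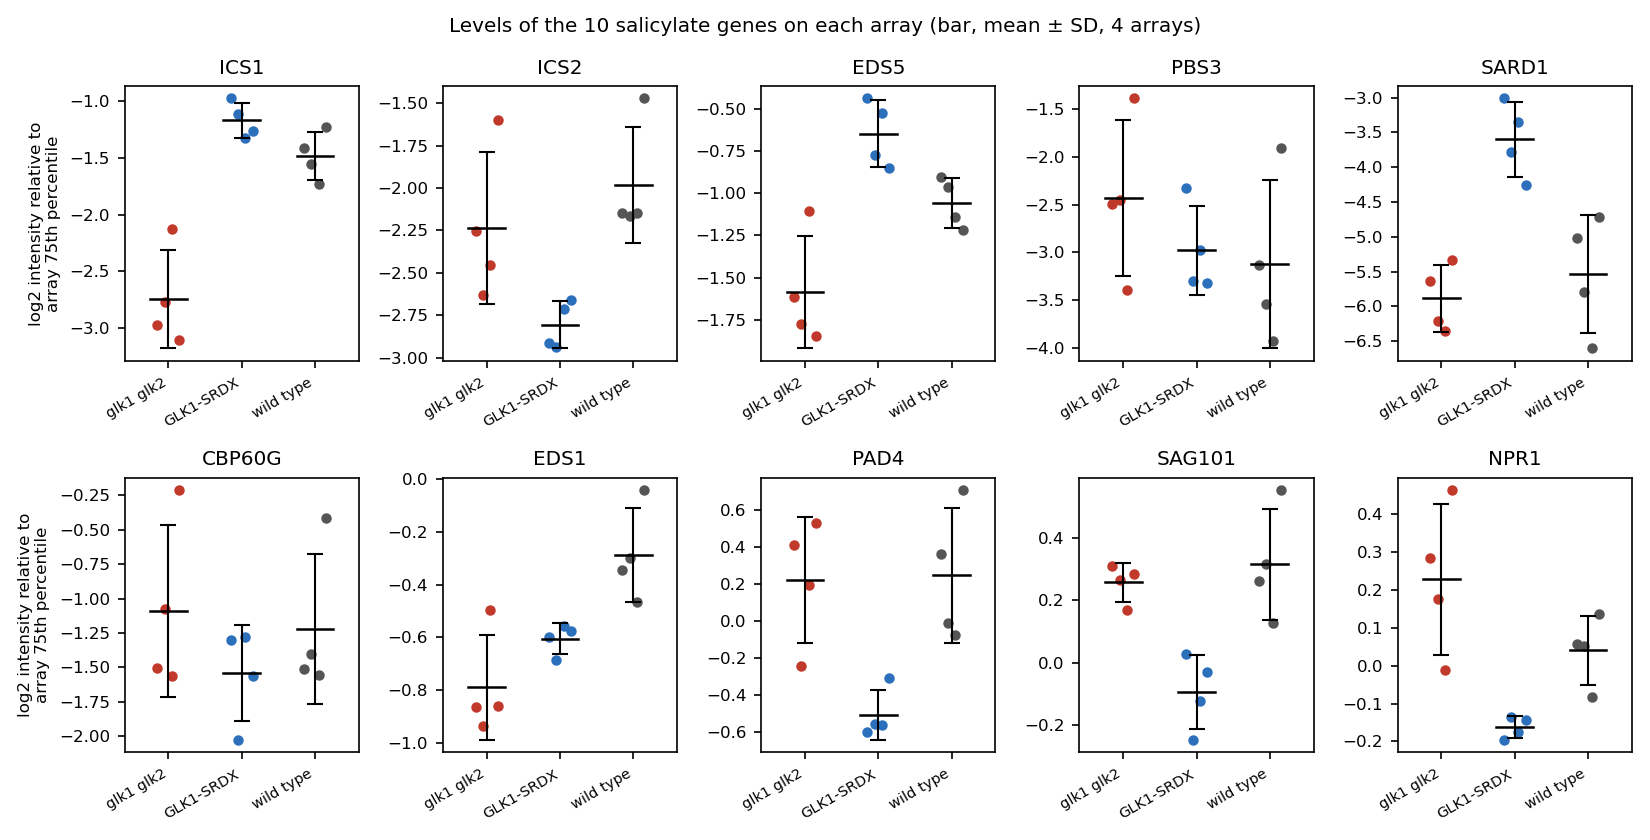
Each panel plots one gene's level, log2 intensity relative to the array's 75th percentile, on the 4 arrays of glk1 glk2, GLK1-SRDX and wild type, with a bar for the mean and whiskers for the SD. ICS1 was lowest in glk1 glk2 on all 4 arrays, SARD1 was highest in GLK1-SRDX, and PAD4, the brighter SAG101 probe (the one drawn) and NPR1 were lowest in GLK1-SRDX.

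ICS2, the minor isochorismate synthase, did not follow ICS1. It stood at -2.25, -2.63, -2.46 and -1.60 in glk1 glk2, at -2.91, -2.93, -2.71 and -2.66 in GLK1-SRDX and at -2.15, -2.17, -2.15 and -1.47 in wild type. The GLK1-SRDX arrays were below all others, and the arrays numbered 4 were highest in both other genotypes. ICS2 fell in GLK1-SRDX against wild type (1.77-fold, -0.82 ± 0.22 SE, limma adjusted p = 0.0334), a call that held in 13 of 24 alternatives (adjusted p from 0.00534 to 0.203). It ended when any one of the 4 GLK1-SRDX arrays, any one of the 4 wild-type arrays or glk1 glk2 replicate 1 was left out (fall of 0.65 to 0.88, adjusted p from 0.0501 to 0.0908). In glk1 glk2 against wild type it stood at -0.25 (95% interval -0.74 to 0.24, adjusted p = 0.564).

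EDS5, the isochorismate exporter, showed the order of ICS1 with smaller differences. Its levels were -1.62, -1.77, -1.11 and -1.85 in glk1 glk2, -0.44, -0.77, -0.52 and -0.85 in GLK1-SRDX and -0.90, -0.96, -1.14 and -1.22 in wild type. GLK1-SRDX lay above both other genotypes without overlap, while glk1 glk2 and wild type overlapped through mutant replicate 3. EDS5 was 1.92-fold higher in GLK1-SRDX than in glk1 glk2 (0.94 ± 0.16 SE, limma adjusted p = 0.00563). Against wild type neither line passed, with -0.53 ± 0.16 in glk1 glk2 (adjusted p = 0.106) and 0.41 ± 0.16 in GLK1-SRDX (adjusted p = 0.114). A fit without glk1 glk2 replicate 3 called 3177 and 4444 of all 20640 genes in these comparisons, in place of 671 and 2972. In it both EDS5 differences passed (-0.69, adjusted p = 0.0117, and 0.41, adjusted p = 0.0301). Over all alternatives these ran from 0.0117 to 1.00 and from 0.0115 to 0.254.

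PBS3, the glutamate-conjugating enzyme, had an SD of 0.82 in glk1 glk2, 0.47 in GLK1-SRDX and 0.88 in wild type, the widest spread of the 10 genes in glk1 glk2 and wild type. It stood at -2.49, -2.45, -3.39 and -1.39 in glk1 glk2, at -2.32, -3.30, -2.97 and -3.32 in GLK1-SRDX and at -3.13, -3.54, -3.93 and -1.90 in wild type. In each same-numbered pair the glk1 glk2 array was the higher, and the pair numbered 4 was far above the others. The unpaired fit gave 0.70 ± 0.48 SE for glk1 glk2 against wild type (limma adjusted p = 0.454), and with replicate number as a block PBS3 was called higher (adjusted p = 0.0449; 0.0449 to 1.00 over its alternatives). With the root-marker covariate the difference was -0.091. GLK1-SRDX stood at 0.15 against wild type (95% interval -0.92 to 1.21, adjusted p = 0.871).

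**Figure D2:**
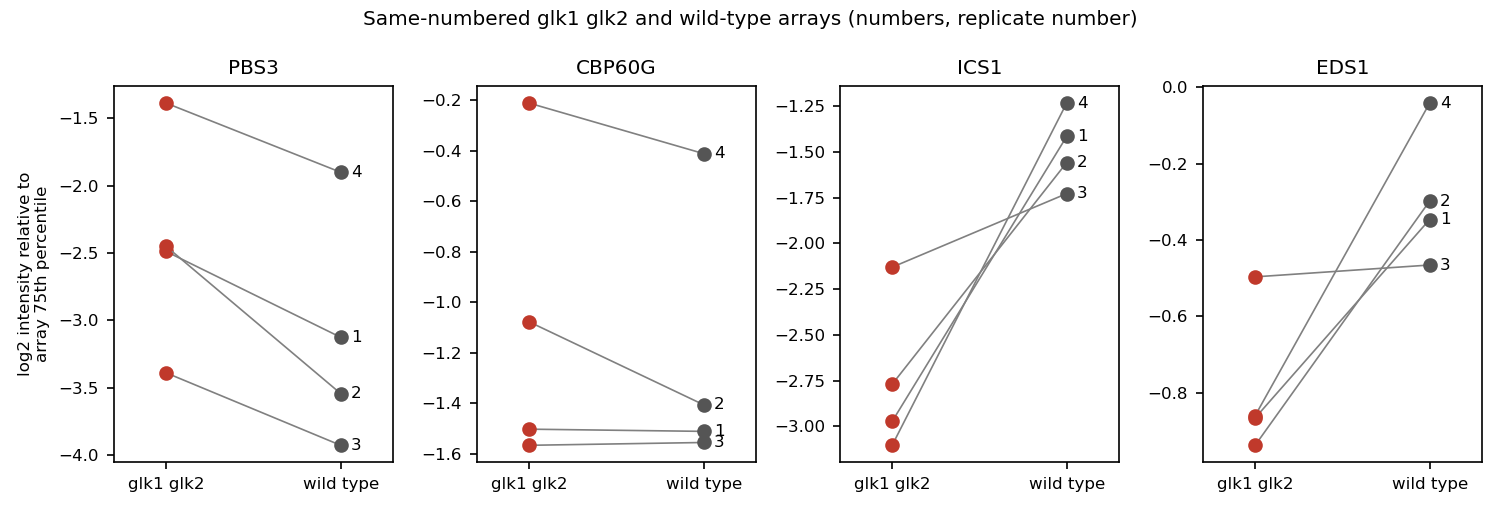
Lines join same-numbered glk1 glk2 and wild-type arrays, with the replicate number beside each wild-type point, and the y axis gives log2 intensity relative to the array's 75th percentile. PBS3 was higher in glk1 glk2 in each pair, CBP60G was highest in pair 4, and in pair 3 EDS1 stood at -0.50 in glk1 glk2 and -0.47 in wild type.

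The transcription factor SARD1 gave the largest change of the 10 genes, and its relative CBP60g none that passed. SARD1 stood at -5.64, -6.21, -6.35 and -5.33 in glk1 glk2, at -3.01, -3.78, -3.35 and -4.25 in GLK1-SRDX and at -5.02, -5.79, -6.61 and -4.72 in wild type. All 4 GLK1-SRDX arrays lay above all others, and glk1 glk2 and wild type overlapped. SARD1 rose 3.83-fold in GLK1-SRDX against wild type (1.94 ± 0.42 SE, limma adjusted p = 0.0129) and was 4.88-fold higher than in glk1 glk2 (2.29 ± 0.42, adjusted p = 0.00737). Of 24 alternatives, 22 kept the rise against wild type past the threshold (0.00483 to 0.0963). The exceptions were the root-marker covariate (1.39, adjusted p = 0.0963) and a fit by replicate number (adjusted p = 0.0549), which does not pair GLK1-SRDX arrays with the others. The covariate was the mean log2 level of the root markers on each array. Relative to the wild-type mean it ran from -1.67 to -0.92 in GLK1-SRDX and from -0.39 to 0.21 in wild type, without overlap, although the summed root intensities given above overlapped. With normexp background correction and quantile normalization its difference was smaller, 0.99 against wild type and 1.04 against glk1 glk2 (adjusted p = 0.00483 and 0.00545). In glk1 glk2 against wild type SARD1 stood at -0.35 (95% interval -1.27 to 0.57, adjusted p = 0.682).

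SARD1 was dim, with 21.1 to 63.1 intensity units in glk1 glk2, 102 to 266 in GLK1-SRDX and 21.0 to 75.2 in wild type. CBP60G stood at -1.50, -1.08, -1.57 and -0.21 in glk1 glk2, at -1.30, -2.03, -1.28 and -1.56 in GLK1-SRDX and at -1.51, -1.41, -1.55 and -0.41 in wild type. The 3 genotypes overlapped, and the arrays numbered 4 of glk1 glk2 and wild type stood apart from the rest of their groups. CBP60G differed from wild type by 0.13 ± 0.34 in glk1 glk2 and by -0.32 ± 0.34 in GLK1-SRDX (limma adjusted p = 0.869 and 0.559). The 95% interval for GLK1-SRDX against wild type was -1.07 to 0.42.

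Among the immune relay genes EDS1 was lower in glk1 glk2, and PAD4 and the brighter SAG101 probe were lower in GLK1-SRDX. EDS1, a lipase-like protein that pairs with either of the others, stood at -0.87, -0.94, -0.50 and -0.86 in glk1 glk2, at -0.60, -0.69, -0.56 and -0.58 in GLK1-SRDX and at -0.35, -0.30, -0.47 and -0.04 in wild type. Both lines lay below wild type without overlap. EDS1 fell in glk1 glk2 (1.42-fold, -0.50 ± 0.11 SE, limma adjusted p = 0.0400) and stood at -0.32 ± 0.11 in GLK1-SRDX (adjusted p = 0.0860). The fall in glk1 glk2 was -0.58 within slide 1 and -0.42 within slide 2, where fits called 20 and 0 of 20640 genes. It missed the threshold with replicate number as a block (adjusted p = 0.101), and passed in 7 of its 26 alternatives (0.0081 to 1.00) and in 2 of the 12 that leave out 1 array, those without replicate 3 of glk1 glk2 or of wild type. Those 2 fits called 3177 and 661 of all 20640 genes. A neighbouring copy of EDS1, AT3G48080, stood at -0.59 ± 0.41 in glk1 glk2 and -0.87 ± 0.41 in GLK1-SRDX (adjusted p = 0.454 and 0.177). It was looked up after the EDS1 values were seen, and whether either probe reads both copies was not tested.

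PAD4 stood at 0.41, -0.24, 0.19 and 0.53 in glk1 glk2, at -0.60, -0.56, -0.56 and -0.31 in GLK1-SRDX and at 0.36, -0.01, -0.08 and 0.71 in wild type. The GLK1-SRDX arrays were below all others, and glk1 glk2 and wild type overlapped. PAD4 fell in GLK1-SRDX against wild type (1.68-fold, -0.75 ± 0.20 SE, limma adjusted p = 0.0306) and was lower in GLK1-SRDX than in glk1 glk2 (-0.73 ± 0.20, adjusted p = 0.0443). These passed in 15 and 10 of 24 alternatives (adjusted p from 0.0190 to 0.221 and from 0.0208 to 0.299). The call against wild type ended without GLK1-SRDX replicate 1, 2 or 3 or wild-type replicate 1 or 4, and that against glk1 glk2 held only without glk1 glk2 replicate 2 or wild-type replicate 3 or 4 among the 12 arrays left out in turn. In glk1 glk2 against wild type PAD4 stood at -0.024 (95% interval -0.46 to 0.41, adjusted p = 0.963), and its sign depended on the setting.

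SAG101 was read by 2 probes, annotated to different transcript models, which moved in opposite directions in GLK1-SRDX. The brighter stood at 0.31, 0.27, 0.17 and 0.28 in glk1 glk2, at 0.03, -0.25, -0.12 and -0.03 in GLK1-SRDX and at 0.26, 0.32, 0.13 and 0.55 in wild type. It fell in GLK1-SRDX against wild type (1.33-fold, -0.41 ± 0.10 SE, limma adjusted p = 0.0202) and was lower than in glk1 glk2 (-0.35 ± 0.10, adjusted p = 0.0463). The first call ended without GLK1-SRDX replicate 2 or 3 or wild-type replicate 2, and of the 12 arrays left out in turn the second held only without glk1 glk2 replicate 3 or wild-type replicate 3 or 4. The dimmer stood at -4.77, -5.01, -4.83 and -4.45 in glk1 glk2, at -4.08, -4.25, -4.40 and -4.52 in GLK1-SRDX and at -4.74, -4.97, -4.60 and -4.84 in wild type.

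Tested by itself, the dimmer probe rose in GLK1-SRDX against wild type (0.47 ± 0.14, limma adjusted p = 0.0415) and stood at 0.45 ± 0.14 against glk1 glk2 (adjusted p = 0.0614). With the mean of the 2 probes SAG101 stood at 0.032 in GLK1-SRDX against wild type (adjusted p = 0.839; 0.0121 to 0.839 over its alternatives), so its direction depends on the probe. No direction was given to SAG101 as a whole, and the brighter probe is the one counted below. In glk1 glk2 against wild type the probes stood at -0.057 ± 0.097 and 0.019 ± 0.14.

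**Figure D3:**
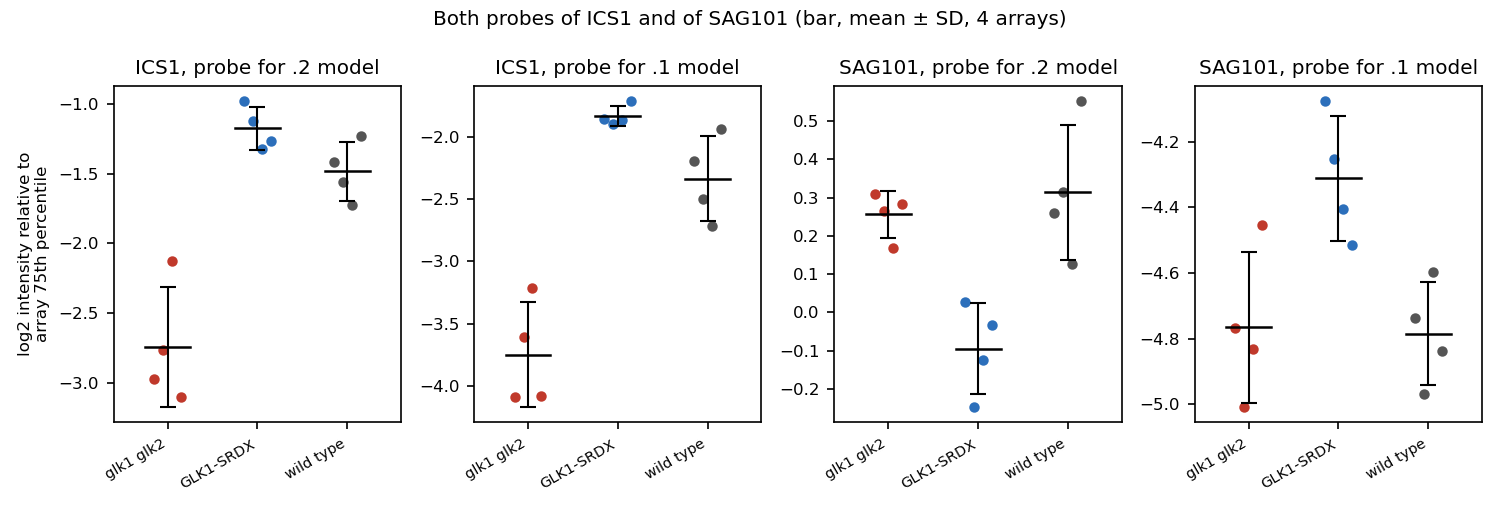
Levels on the 4 arrays of each genotype are shown for both probes of ICS1 and both of SAG101, with bars for the mean and SD and the y axis as log2 intensity relative to the array's 75th percentile. The ICS1 probes gave the same order of genotypes, while GLK1-SRDX was lowest on the brighter SAG101 probe and had the highest mean on the dimmer one.

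NPR1, the salicylate receptor and coactivator, was lower in GLK1-SRDX than in glk1 glk2. It stood at 0.28, 0.18, -0.01 and 0.46 in glk1 glk2, at -0.20, -0.14, -0.17 and -0.14 in GLK1-SRDX and at 0.06, 0.05, -0.08 and 0.14 in wild type. GLK1-SRDX lay below both others without overlap. The difference from glk1 glk2 was 1.31-fold (-0.39 ± 0.10 SE, limma adjusted p = 0.0294), and 14 of its 24 alternatives passed (0.0038 to 0.729). It ended without any one of the 4 GLK1-SRDX arrays or without glk1 glk2 replicate 1 or 2. Against wild type neither line passed, with 0.19 ± 0.10 in glk1 glk2 (adjusted p = 0.312) and -0.20 ± 0.10 in GLK1-SRDX (adjusted p = 0.179).

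Counted together, in glk1 glk2 against wild type 2 of the 10 genes fell (ICS1 and EDS1), 0 rose and 8 did not pass, where 3.25% of all tested genes were called in either direction, 2.14% higher and 1.11% lower. Their median log2 fold change was -0.15, beside 0.00067 over all tested genes. In GLK1-SRDX against wild type 3 fell (ICS2, PAD4 and the brighter SAG101 probe), 1 rose (SARD1) and 6 did not pass, where 14.4% of all genes were called, 8.1% higher and 6.3% lower. The median was -0.26, beside 0.012 over all genes. In GLK1-SRDX against glk1 glk2, which tests the difference between the lines, ICS1, SARD1 and EDS5 were higher, PAD4, the brighter SAG101 probe and NPR1 were lower and 4 did not pass, where 9.26% of all genes were called, 5.68% higher and 3.58% lower. The median was -0.37, beside -0.0052. In glk1 glk2 against wild type 2 of the 10 genes did not overlap between arrays, both lower, where 9.66% of all genes did not (6.42% higher, 3.23% lower). In GLK1-SRDX against wild type 2 were higher and 5 lower without overlap, where 28.1% of all genes did not overlap (15.1% higher, 13% lower). In GLK1-SRDX against glk1 glk2 3 were higher and 4 lower, where 17.2% of all genes did not overlap (9.86% higher, 7.38% lower). The comparisons share groups of arrays and are not independent.

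The higher ICS1, SARD1 and EDS5 in GLK1-SRDX than in glk1 glk2 passed in each of 24 alternatives (adjusted p up to 0.0421, 0.0437 and 0.0376). The calls of lower PAD4, SAG101 and NPR1 passed in 10, 8 and 14 of 24. No alternative could separate genotype from slide, since every GLK1-SRDX array was on slide 3. Scaling each array by its median moved the median of all genes to 0.20 in GLK1-SRDX and 0.19 in glk1 glk2 against wild type. Every gene of a comparison moves by that same amount, and against wild type 2 genes were then called higher in GLK1-SRDX (SARD1 and EDS5) and 0 lower, in place of 1 and 3. Relative to that shifted median, the fold changes were those of the 75th-percentile scaling. Over all genes 78.9% of calls in GLK1-SRDX and 90.3% in glk1 glk2 were then higher than wild type, against 56.2% and 65.7%. Of the calls against glk1 glk2, 3 were higher and 0 lower with median scaling. The series value table called 2.94% of 136 genes higher in glk1 glk2 than in wild type, and 90.5% of 1552 higher in GLK1-SRDX than in glk1 glk2.

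**Figure D4:**
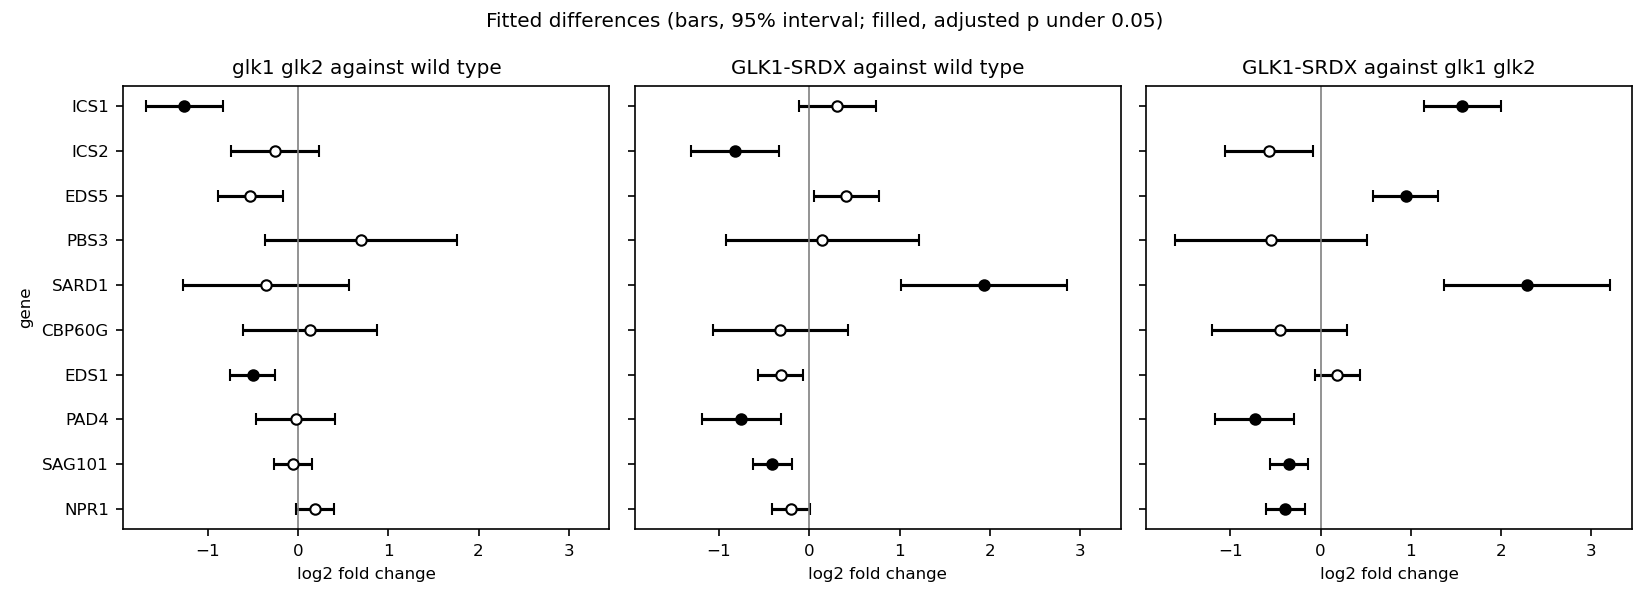
Points give the fitted log2 fold change of each gene in the 3 comparisons and bars its 95% interval; filled points passed at an adjusted p under 0.05. ICS1, SARD1 and EDS5 lay above 0 in GLK1-SRDX against glk1 glk2, and PAD4, the brighter SAG101 probe and NPR1 below it.

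Of 61 further genes listed for the pathway, 59 were tested, and 1 rose and 1 fell in glk1 glk2, 5 rose and 1 fell in GLK1-SRDX against wild type, and 3 were higher and 2 lower in GLK1-SRDX than in glk1 glk2. These were 3.39%, 10.2% and 8.47% of the 59, beside 3.25%, 14.4% and 9.26% of all tested genes. PR1, counted as higher in GLK1-SRDX in both of its comparisons, met the filter on dim probes only through the GLK1-SRDX arrays. Among 14 activators of ICS1 and partners of NPR1, WRKY28, which binds the ICS1 promoter, moved opposite to ICS1. It stood at -1.62, -1.55, -1.81 and -1.25 in glk1 glk2, at -2.85, -3.10, -3.53 and -2.76 in GLK1-SRDX and at -2.38, -2.62, -2.63 and -2.41 in wild type. The 3 genotypes did not overlap. WRKY28 rose 1.93-fold in glk1 glk2 (0.95 ± 0.17 SE, limma adjusted p = 0.0157), stood at -0.55 ± 0.17 in GLK1-SRDX against wild type (adjusted p = 0.0544) and was 2.83-fold lower in GLK1-SRDX than in glk1 glk2 (adjusted p = 0.000703). NIMIN3, which encodes an NPR1-binding protein, rose in GLK1-SRDX (1.42-fold, limma adjusted p = 0.00585).

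Among 6 tested genes that form or convert salicylic acid, 1 fell in glk1 glk2 and 1 rose in GLK1-SRDX against wild type. DMR6, a salicylate hydroxylase, stood at -0.95, -1.21, -0.47 and -1.19 in glk1 glk2, at -0.32, -0.32, 0.05 and -0.37 in GLK1-SRDX and at 0.39, 0.42, -0.04 and -0.03 in wild type. It fell 2.20-fold in glk1 glk2 (-1.14 ± 0.18 SE, limma adjusted p = 0.00996), below all other arrays, and was 1.64-fold higher in GLK1-SRDX than in glk1 glk2 (adjusted p = 0.0349). UGT74F2, a salicylate glucosyltransferase with a close paralogue in UGT74F1, rose 2.08-fold in GLK1-SRDX (adjusted p = 0.0122), while UGT74F1 stood at -0.21 there (adjusted p = 0.324).

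Of 6 phylloquinone genes, which also use isochorismate, NS (naphthoate synthase) rose in GLK1-SRDX against wild type (log2 fold change 0.59 ± 0.14 SE, limma adjusted p = 0.0185) and was 1.74-fold higher than in glk1 glk2 (adjusted p = 0.0052). The others did not pass, with NDC1 nearest in glk1 glk2 (0.54, adjusted p = 0.248). In the parallel route through phenylalanine ammonia-lyase, PAL4 stood at -0.73 in glk1 glk2 against wild type (limma adjusted p = 0.196) and fell 1.97-fold in GLK1-SRDX (adjusted p = 0.0450) and PAL2 was 1.72-fold lower in GLK1-SRDX than in glk1 glk2 (adjusted p = 0.0183).

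No member passed in any comparison among 7 repressors of the pathway, 6 helper and adaptor receptors, 5 genes of chorismate supply or competing use, 4 genes of N-hydroxypipecolate, a second systemic signal, and 4 tested WRKY factors of the response. Those with the smallest p in GLK1-SRDX against wild type were CAMTA3 (-0.15), ADR1 (0.46), chorismate synthase (0.16), UGT76B1 (-1.22) and WRKY70 (-1.06), with limma adjusted p of 0.163, 0.0826, 0.180, 0.0669 and 0.0816. In glk1 glk2 they were EIN3 (-0.18), NRG1.2 (-0.17), CM1 (0.41), ALD1 (at least 1.81-fold lower, above background on 1 of 4 glk1 glk2 and 3 of 4 wild-type arrays) and WRKY54 (-0.59), with adjusted p of 0.290, 0.400, 0.153, 0.316 and 0.120. In GLK1-SRDX against glk1 glk2 they were ANAC055 (-1.21), ADR1-L2 (-0.32), CM2 (-0.15), SARD4 (0.37) and WRKY38 (at least 1.51-fold higher, above background on 3 of 4 GLK1-SRDX and 1 of 4 glk1 glk2 arrays), with adjusted p of 0.126, 0.128, 0.166, 0.155 and 0.208. At an unadjusted p under 0.05 these 5 lists held 0, 0, 2, 0 and 2 genes in glk1 glk2 and 0, 2, 0, 1 and 1 in GLK1-SRDX, in the order given.

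All 3 defence outputs listed were tested, and 2 rose in GLK1-SRDX against wild type. PR5 rose 2.15-fold in GLK1-SRDX against wild type (limma adjusted p = 0.0141) and stood at 0.87 in glk1 glk2 (adjusted p = 0.0803). PR1 rose in GLK1-SRDX by at least 1.29-fold (adjusted p = 0.0319); its signal was clear of background on 4 of 4 GLK1-SRDX and 1 of 4 wild-type arrays. PR1 was also at least 1.55-fold higher in GLK1-SRDX than in glk1 glk2 (adjusted p = 0.0244), where 0 of 4 arrays cleared background. PR2 had 1718, 17.5, 24.3 and 32.5 intensity units in GLK1-SRDX and cleared background on 0 of 4 arrays of each other genotype. Its high mean comes from replicate 1, and it did not pass (at least 5.14-fold against wild type, adjusted p = 0.101, and 6.07-fold against glk1 glk2, adjusted p = 0.0926).

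**Figure D5:**
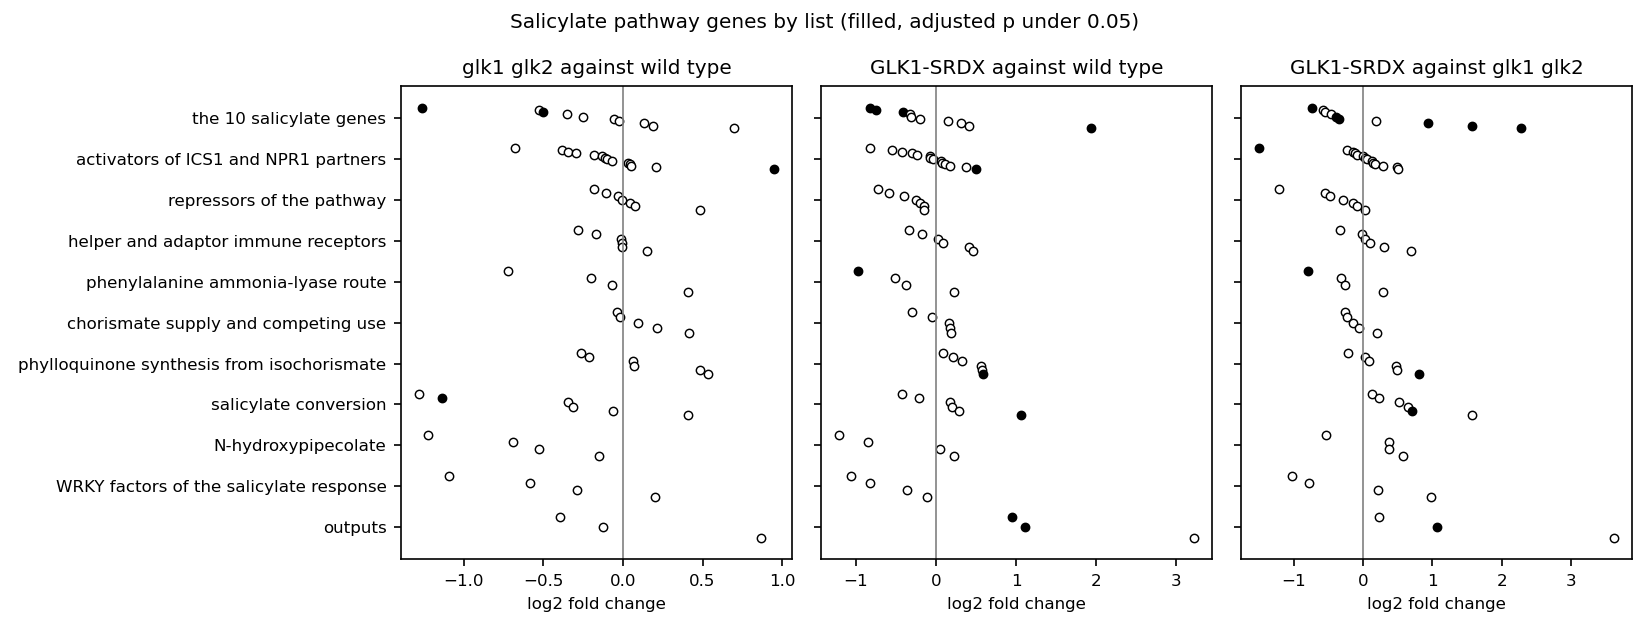
Each point is the fitted log2 fold change of a tested gene, by list, in the 3 comparisons; filled points passed at an adjusted p under 0.05. Filled points were scattered over the lists, 2, 4 and 6 of them among the 10 salicylate genes and 2, 6 and 5 among the 59 tested genes of the other pathway lists drawn. Over all tested genes 3.25%, 14.4% and 9.26% passed.

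Other tissue markers moved beside these groups. Of 20 root markers 0 passed in glk1 glk2 (median -1.05) and 7 fell in GLK1-SRDX (median -1.25), where 6.3% of all genes fell. In glk1 glk2 9 of the 20 were at an unadjusted p under 0.05, as were at least 3845 of all 20640 genes. The 7 that fell in GLK1-SRDX were CASP1 to CASP5, ESB1 and SKOR, genes of the root endodermis and stele. SHR, SCR and MYB36, also on the list, did not pass, and the mean level of SCR was 0.94 in both GLK1-SRDX and wild type. Of the 20 markers 18 were below and 2 above wild type in GLK1-SRDX. CASP5 was also lower in GLK1-SRDX than in glk1 glk2 (by at least 3.17 log2 units, above background on 2 of 4 GLK1-SRDX arrays, limma adjusted p = 0.0150). Of 5 guard-cell markers MYB60 fell in GLK1-SRDX against wild type (-0.58, adjusted p = 0.0325) and was lower than in glk1 glk2 (-0.87, adjusted p = 0.00662). The senescence marker SAG13 had a mean at least 6.59-fold the wild-type signal in glk1 glk2 and at least 3.78-fold in GLK1-SRDX. It did not pass (limma adjusted p = 0.110 and 0.108), with 1 of 4 wild-type arrays above background. In GLK1-SRDX it had 787, 16.0, 43.3 and 15.1 intensity units, with replicate 1 far above the rest. ORE1, the other senescence marker tested, stood at -0.37 in glk1 glk2 and -0.34 in GLK1-SRDX against wild type and did not pass. SAG12 was too dim to be tested. Adjusting for the root markers, 1 of the 10 salicylate genes passed in glk1 glk2 (ICS1), 4 in GLK1-SRDX against wild type (EDS5 higher; ICS2, SAG101 and NPR1 lower) and 7 against glk1 glk2. Over all 20640 tested genes 843, 3124 and 3776 passed in that fit, in place of 671, 2972 and 1911. The part of guard-cell and senescence markers in the results was not tested.

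Likeness to ICS1 was read only from tested genes with a symbol, 9080 of 20640. Genes known by locus number alone were left out. Those that followed ICS1 most closely over the 12 arrays were PCME, LUL1, UF3GT, UREG and PSBP-2. Their Pearson r was 0.96, 0.95, 0.94, 0.94 and 0.93. After each genotype's mean was taken off, the closest genes with a symbol were BGLU35, LEA, XPO1A, LEA7 and ZIP8. Their r was 0.94, 0.87, 0.86, 0.86 and 0.84. These describe 12 arrays in 3 groups that share scaling and slides. Within genotypes, among the 10 genes themselves, r was highest for CBP60G with PBS3 (0.88) and SARD1 with PBS3 (0.85), and ICS1 followed EDS1 (0.76).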

How the data were processed

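The authors deposited linear spot intensity from the scanner. The submitters' processing notes name Agilent Feature Extraction 9.1.3.1, and per the file headers its processed intensity is corrected for background. The series value table, also a deposited intensity, is the processed intensity divided by 1 constant per genotype (1077 for glk1 glk2, 892 for GLK1-SRDX and 974 for wild type). Its column medians were 0.0798 to 0.168. These values are linear and not centred, and where the constants came from is not stated. For this work, log2 processed intensity was taken relative to each array's 75th percentile, control and outlier spots (6 to 86 per array) were left out and no saturation was marked (0 spots). Probes were kept when well above background on at least 4 of 12 arrays and unmarked on at least 3 per group. Each locus was read from its brightest kept probe. Symbols came from RefSeq (assembly TAIR10.1; 20521 of 20640 tested loci matched), where ICS1 is listed as EDS16. limma 3.58.1 in R 4.3.3 was fitted to all 12 arrays, leaving 9 residual degrees of freedom. Its two-sided moderated tests pool the spread over genes, which raised these to 10.8 in the fit by probe. Adjustment of p was by Benjamini-Hochberg over 20640 genes with a threshold of 0.05, to which "rose", "fell" and "called" refer. The number of arrays limits the precision (median SE 0.14), and the fit was tested on simulated data.

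The 10 genes and the lists were chosen with earlier results of these data known. From each pathway list the text names passing members, up to 3 per comparison, or the member with the smallest p. Marker lists, from which only some passing genes are named, covered root, green tissue, guard cells, phloem, senescence and reference genes. PSAD2 fell in glk1 glk2 among 5 green-tissue markers, 0 of 2 phloem markers passed, and of 7 reference genes ACT2 was lower in GLK1-SRDX than in glk1 glk2, where PSAD2 was higher. Where a gene did not clear background on all arrays of its dimmer group, "at least" gives a bound on the ratio of group means. It compares the brighter mean with, per array, whichever is higher of the dim value and the weakest signal that cleared background. The spread between arrays does not enter it. Same-numbered glk1 glk2 and wild-type arrays deviated together (r = 0.32, 0.38, 0.46 and 0.76 over genes), so a block on replicate number was used as an alternative for that comparison. For GLK1-SRDX r ran from -0.20 to 0.26 with wild type and from -0.096 to 0.58 with glk1 glk2, highest in replicate 3. Those numbers were not taken as pairs. Alternatives changed scaling, background, filter, probe, samples, blocks and covariate, left out each array, and, added after the data were seen, used the dimmest probe, each probe by itself, and left out both arrays numbered 4. The files hold no mean signal, so normexp used the median signal with an offset of 50.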

Additional observations from a re-analysis of the deposited data

Results flagged for a closer look

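Each of the 12 probes was examined in each genotype, 36 groups of 4 arrays, for an array set far from the other 3, and 3 were found. Chance gives about 1 in 20. ICS2 on wild-type replicate 4 stood at -1.47, with the other wild-type arrays between -2.17 and -2.15. CBP60G on the same array stood at -0.41, with the others between -1.55 and -1.41. PAD4 on GLK1-SRDX replicate 4 stood at -0.31, with the others between -0.60 and -0.56. On wild-type replicate 4 the root markers were also the lowest of the 4 wild-type arrays, at -0.39 around the wild-type mean, and their part in these values was not tested. Without wild-type replicate 4, ICS2 stood at -0.65 and PAD4 at -0.60 in GLK1-SRDX against wild type (limma adjusted p = 0.068 and 0.0616, and 0.00534 to 0.203 and 0.0190 to 0.221 over their alternatives).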

How the results depend on the processing

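The counts of the 10 genes passing were 2 in glk1 glk2 against wild type, 4 in GLK1-SRDX against wild type and 6 in GLK1-SRDX against glk1 glk2. In the first they were 1 with median scaling, no filter on dim probes, the root-marker covariate and the series value table. Over all genes these fits called 1654, 443 (of 25604), 843 and 136. The counts of the 10 genes were 0 within slide 1, within slide 2, in a fit of only the 2 groups compared, and without both arrays numbered 4. Those fits, in that order, called 20, 0, 111 and 225 of all 20640 genes, so they could call few genes of any kind. In the second comparison the counts of the 10 genes were 2 with median scaling and 1 with the series value table. Over all genes 4414 and 899 passed there. In the third 3 of the 10 genes passed with either, beside 1154 and 1552 over all genes. With replicate number as a block the counts of the 10 genes were 1, 2 and 3 over the 3 comparisons. Over all genes 1365, 2526 and 726 then passed, in place of 671, 2972 and 1911. GLK1-SRDX numbers are not pairs, so a call lost under the block there says nothing of its size. Leaving out 1 array at a time gave 1 to 3, 1 to 6 and 3 to 6 of the 10 genes. Over all 20640 genes those fits called 229 to 3177, 1523 to 4444 and 1005 to 2684.

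Some log2 fold changes turned sign. With median scaling this follows from the shift of 0.19 that it gives every gene of glk1 glk2 against wild type, and with another SAG101 probe from the probe read. The series value table also shifts every gene of that comparison alike, with a median over all genes of -0.19 in place of 0.00067. For the rest the cause was not tested. In glk1 glk2 against wild type CBP60G was -0.36 with the root-marker covariate, -0.055 in the series value table and -0.16 to 0.40 with 1 array left out. PAD4 was 0.17 with median scaling, 0.046 within slide 2, 0.028 without both arrays numbered 4 and -0.13 to 0.13 with 1 array left out. SAG101 was 0.13 with median scaling, 0.019 on its dimmer probe, 0.013 without both arrays numbered 4 and -0.12 to 0.022 with 1 array left out. PBS3 was -0.091 with the root-marker covariate. In GLK1-SRDX against wild type PBS3 was -0.94 with that covariate and -0.12 to 0.55 with 1 array left out, and SAG101 was 0.032 with the mean of its probes and 0.47 on the dimmer. Against glk1 glk2 SAG101 was 0.051 and 0.45 in the same settings. All probes of the 10 genes were well above background, but SARD1 was dim, and its log2 fold change over the alternatives ran from 0.99 to 2.21 in GLK1-SRDX against wild type and from 1.04 to 2.57 against glk1 glk2. With 4 arrays a group, intervals as wide as that of PBS3 do not exclude differences of over 1 log2 unit.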
